A study of Mus musculus with 12 samples.

Results

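The genes described here carry and read the signal of leukemia inhibitory factor (LIF) in mouse embryonic stem cells (mESC): the receptor chains Lifr and Il6st, the transcription factor Stat3, and 6 genes known as STAT3 targets, Socs3, Junb, Gbx2, Pim1, Pim3 and Bcl3. They were chosen by symbol, as 9 of the 24391 gene symbols in the count table, and 9 of 9 passed the filter on low counts that left 17115 genes for testing. RNA came from 4 mESC lines, all female and derived from C57BL/6J-129/SvJ crossed with Mus musculus castaneus, each giving 1 library in each of 3 conditions, so that the 12 libraries form 6 groups of 2. Lines 15.10 and 16.9 were Rif1F/F Rs26+/CreERT, in which 4-hydroxytamoxifen (OHT) activates Cre and removes the floxed Rif1 alleles. Lines 5.3 and 5.16 were Rif1+/+ Rs26+/CreERT and are called WT, so the controls carried the same inducible Cre and received the same OHT. The conditions were mESC without OHT (floxed libraries called F/F), mESC after 2 days of OHT (floxed libraries called KO), and embryoid bodies (EB) grown for 2 days from OHT-treated cells. The mESC medium held serum, 20 ng/ml LIF, 1 µM of the MEK inhibitor PD0325901 and 3 µM of the GSK3 inhibitor CHIR99021, and the labels describe no separate medium for EB. The titles of F/F libraries include a KO name as well as a WT name, and the libraries were read as undeleted, since these cells had no OHT.

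LIF brings together its own receptor chain, LIFR, and gp130, the protein of Il6st, and the JAK kinases bound to them phosphorylate STAT3. STAT3 dimers then enter the nucleus and switch on target genes, of which Socs3 encodes an inhibitor that binds gp130 and JAK and so damps the signal. In mESC this pathway is known for supporting self-renewal. In EB, cells stop self-renewing and begin to differentiate.

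Library totals ranged from 28600870 to 64808897 counts, and the 9 genes together held 15521 to 53903 of them. Levels are given as CPM, a gene's share of the counts of its library scaled to a fixed total, after TMM scaling, adjusted p-values come from edgeR's quasi-likelihood F test over the 17115 genes, and a gene is said to be called, higher or lower when its adjusted p is under 0.05. Rif1 itself had 702 and 662 CPM in KO mESC against 1605 and 1455 CPM in WT mESC after OHT (adjusted p = 4.41e-09), and 789 and 845 CPM in KO EB against 1382 and 1342 CPM in WT EB (adjusted p = 6.75e-07). Before OHT it already stood at 1172 CPM in both F/F libraries, against 1537 and 1752 CPM in WT (adjusted p = 7.4e-05). Reads were counted over all of Rif1, and the labels do not say which exons Cre removes. WT mESC replicate 1 after OHT stood apart from the other libraries, with 0.869% of its counts in Lars2, where the other 11 had at most 0.140%. For the 9 genes, results that use it are given without it where its removal changes a call. For the gene lists this was done only in part, and counts of called cell type markers were not repeated without it. The flow cell, as read from the start of the description label, changed with the condition, so the effects of these cannot be told apart, while each comparison of genotypes lies within 1 flow cell. Each genotype is 2 lines, so within a condition other differences between the lines cannot be told apart from the state of Rif1.

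Of the promoters of the 9 genes, that of Socs3 held the palindromic STAT site TTCNNNGAA. It is shown with the promoters of Bcl3 and Pim3, whose levels across the libraries followed those of Socs3 most closely among the 9 genes, and of Gbx2, which moved the opposite way. The sequences are the bases just before each RefSeq gene start in GRCm38.p6, 5′ to 3′ on the strand of the gene, and capitals mark the STAT site.
Socs3: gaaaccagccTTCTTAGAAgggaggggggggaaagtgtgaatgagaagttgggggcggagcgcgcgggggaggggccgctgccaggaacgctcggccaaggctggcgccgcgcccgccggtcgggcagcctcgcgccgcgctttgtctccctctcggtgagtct
Bcl3: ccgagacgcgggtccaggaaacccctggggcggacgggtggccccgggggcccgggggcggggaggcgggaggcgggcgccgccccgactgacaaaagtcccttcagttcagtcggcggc
Pim3: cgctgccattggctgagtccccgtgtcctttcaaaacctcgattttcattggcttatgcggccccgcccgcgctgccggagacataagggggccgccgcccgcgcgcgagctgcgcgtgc
Gbx2: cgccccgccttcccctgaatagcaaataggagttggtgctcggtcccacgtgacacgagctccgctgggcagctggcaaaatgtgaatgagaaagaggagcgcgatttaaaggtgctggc
The Socs3 stretch is chr11:117969367-117969530 on the minus strand and its site, TTCTTAGAA, begins 154 bases before the gene start. The Bcl3 stretch is chr7:19822756-19822875 (minus), the Pim3 stretch chr15:88862074-88862193 (plus) and the Gbx2 stretch chr1:89931177-89931296 (minus). The motif was sought on both strands, on which it reads the same, from 250 bases before to 50 bases after each start. Of 27025 genes with such a window, 9.55% held it, against 1 of the 9 genes here, and no match in the other windows says only that these letters are absent from them. The stretches shown had a GC content of 70.1% for Socs3, 77.5% for Bcl3, 67.5% for Pim3 and 57.5% for Gbx2. In GRCm38, the receptor chains lie at chr15:7090614-7197489 (Lifr) and chr13:112464070-112510086 (Il6st), Stat3 at chr11:100885098-100939540 and Socs3 at chr11:117966079-117970047. The other target genes lie at chr8:84974484-84978718 (Junb), chr1:89927956-89931179 (Gbx2), chr17:29490753-29496112 (Pim1), chr15:88862186-88865726 (Pim3) and chr7:19808462-19822770 (Bcl3). These are spans of GENCODE, in which Socs3 begins further upstream than in RefSeq, so the Socs3 stretch shown lies inside its GENCODE span. The counts themselves were made on mm9, so these GRCm38 positions describe the sequences and not the counting.

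Per kilobase of exon, the kinases Pim1 and Pim3 were the most abundant of the 9 genes in all 6 groups. Before OHT their levels were 105 ± 1.61 and 106 ± 2.66 CPM per kb in F/F mESC and 103 ± 2.31 and 104 ± 4.13 CPM per kb in WT mESC (SD, n = 2 each), so the pair did not differ beyond their spread. Socs3 came next in mESC before OHT, at 33.7 ± 1.21 CPM per kb in F/F and 33.0 ± 3.10 CPM per kb in WT. In WT mESC before OHT, Stat3 at 12.5 ± 0.623 and Il6st at 12.1 ± 1.47 CPM per kb lay within each other's spread, as did Lifr at 9.38 ± 0.664 and Bcl3 at 9.10 ± 0.432. Junb at 5.89 ± 0.800 and Gbx2 at 1.96 ± 0.00842 CPM per kb were the lowest. In EB the order below the Pim genes was another: Il6st led with 9.33 ± 0.375 CPM per kb in KO and 9.11 ± 0.139 in WT, and Bcl3 was last with 1.01 ± 0.285 in KO and 0.923 ± 0.0402 in WT.

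**Figure D1:**
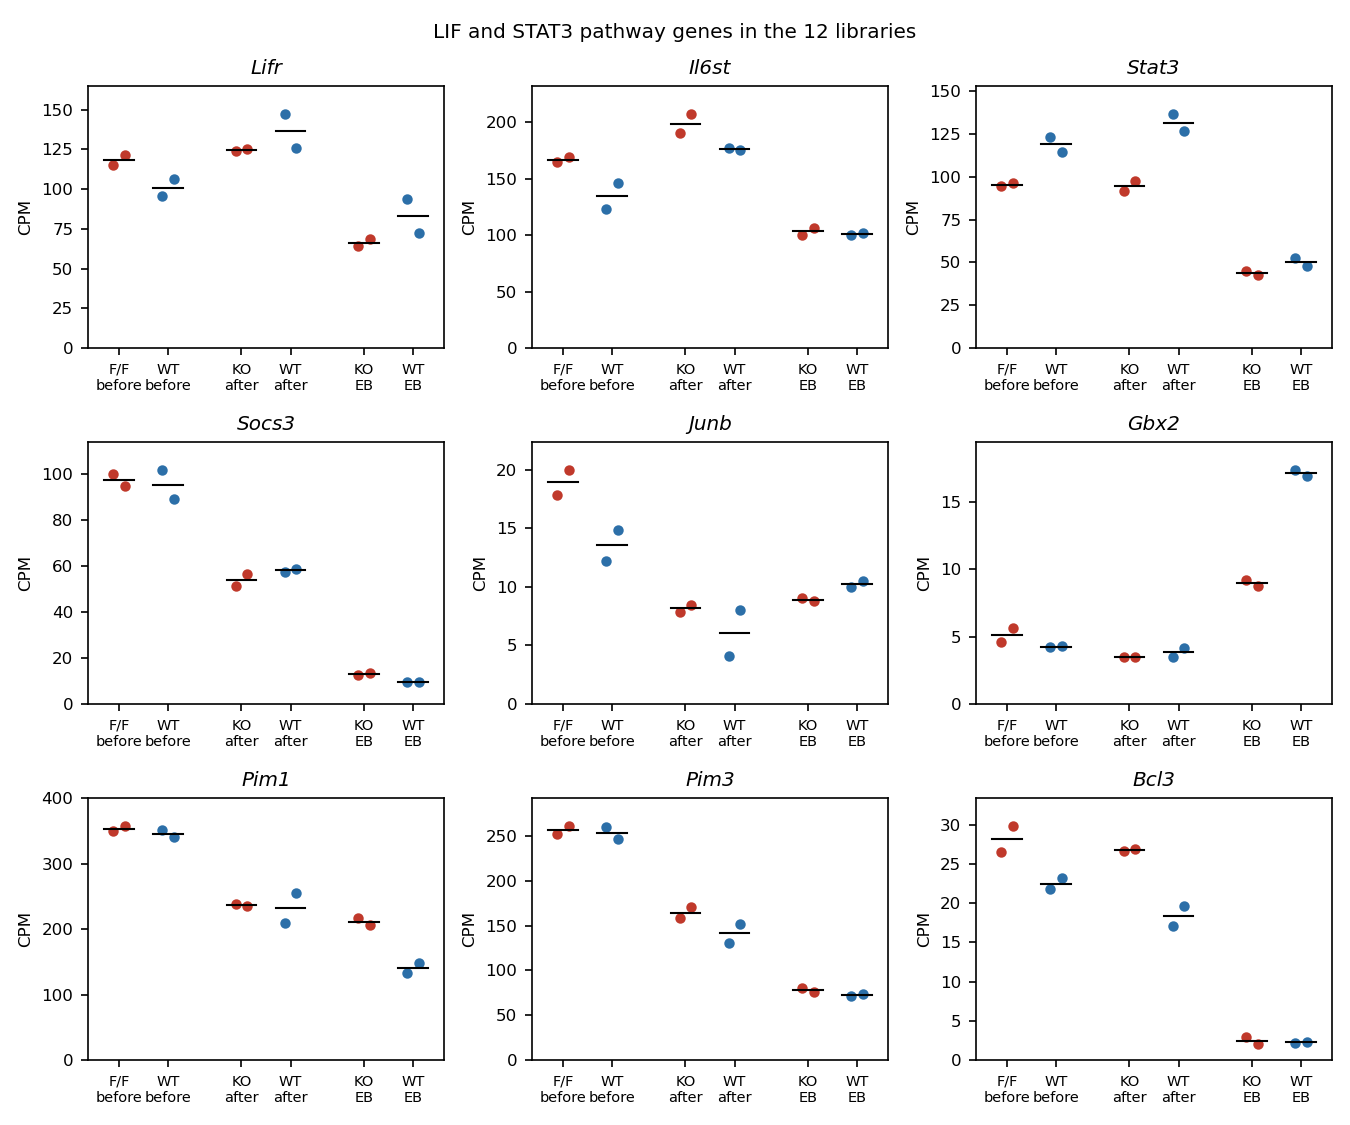
Level of each of the 9 genes in CPM (vertical axis, from 0, a scale of its own in each panel) in the 12 libraries, grouped by condition, with floxed (F/F or KO, red) left of WT (blue). Points are libraries and bars are means of 2: Socs3 and Bcl3 are lowest in EB, Gbx2 is highest there, and within EB the KO points lie above the WT points for Pim1 and below them for Gbx2.

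Before OHT, the floxed and WT lines already differed in 3 of the 9 genes, 2 higher and 1 lower in F/F. Of all genes tested, 37.4% were called (19.9% higher and 17.5% lower). Stat3 had 94.5 and 96.3 CPM in F/F mESC against 123 and 115 CPM in WT mESC. The groups did not overlap, and Stat3 was lower in F/F by a log2 fold change of -0.32 ± 0.07 (SE; adjusted p = 0.002). Il6st, the shared receptor chain, had 165 and 169 CPM in F/F and 123 and 146 CPM in WT (0.31 ± 0.08; adjusted p = 0.00356). Bcl3, an atypical IκB protein that binds NF-κB subunits, had 26.5 and 29.8 CPM in F/F and 21.8 and 23.3 CPM in WT (0.32 ± 0.12; adjusted p = 0.0366). The Il6st call was lost without WT replicate 1 (0.20, adjusted p = 0.0872). The Bcl3 call was lost without that library (0.28, adjusted p = 0.184), without WT replicate 2 (0.38, adjusted p = 0.063) or without F/F replicate 4 (0.23, adjusted p = 0.249). Socs3, Pim1 and Pim3 had fold changes of 0.03, 0.03 and 0.02 on the log2 scale, the widest 95% interval being that of Pim1, from -0.14 to 0.20. Junb, a component of the AP-1 factor, had 17.9 and 20.0 CPM in F/F against 12.2 and 14.8 CPM in WT (0.48 ± 0.19; adjusted p = 0.0582). It was called when genes with low counts were kept (adjusted p = 0.00134) or when the 4 libraries were fitted alone (adjusted p = 0.00608). Lifr, at 0.23 ± 0.10 (adjusted p = 0.0803), was called in the same fits (adjusted p = 0.0132 and 0.0343).

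After 2 days of OHT, 4 of the STAT3 targets fell in both genotypes against mESC without OHT: Socs3, Junb, Pim1 and Pim3. Il6st rose in both. How many of all genes were called in the same direction in both genotypes was not computed. In KO against F/F mESC, 1 of the 9 genes was higher and 5 were lower, where 43.7% of all genes were called (22.1% higher and 21.5% lower). In WT after against before OHT, 2 were higher and 5 lower, where 49.1% of all genes were called (24.9% higher and 24.2% lower). Socs3 had 51.4 and 56.5 CPM in KO mESC against 99.95 and 94.997 CPM in F/F mESC (-0.85 ± 0.08; adjusted p = 4.25e-07). In WT it had 57.5 and 58.7 CPM after OHT against 102 and 89.1 CPM before it (-0.72 ± 0.08; adjusted p = 2.18e-06). In each of the 4 lines Socs3 after OHT was thus between 51.4% and 65.9% of its level before. Pim3 had 158 and 171 CPM in KO mESC against 252 and 261 CPM in F/F mESC (-0.64 ± 0.07; adjusted p = 4.47e-06). In WT its levels were 131 and 152 CPM after and 260.3 and 246 CPM before OHT (-0.84 ± 0.07; adjusted p = 3.84e-07). Pim1 changed by -0.58 ± 0.08 in both genotypes (adjusted p = 3.39e-05 in the floxed lines and 2.8e-05 in WT).

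Junb fell the most of the 9 genes at this step. It had 7.87 and 8.44 CPM in KO mESC against 17.9 and 20.0 CPM in F/F mESC (-1.21 ± 0.20; adjusted p = 0.00016). In WT it had 4.08 and 8.02 CPM after against 12.2 and 14.8 CPM before OHT (-1.17 ± 0.20; adjusted p = 0.000178), and -0.74 (adjusted p = 0.000648) without WT replicate 1 after OHT, which holds the lowest Junb value. Junb belongs to the immediate early genes, a class of quickly induced genes. Of 11 other such genes, 8 fell and 0 rose in KO against F/F mESC, where 21.5% of all genes fell. In WT, 6 of 11 fell and 0 rose, where 24.2% of all genes fell. Their summed level was 226 and 238 CPM in KO mESC against 431 and 453 CPM in F/F mESC, and 333 and 233 CPM in WT after OHT against 393 and 484 CPM before it. Among them, Jun fell by 1.16 on the log2 scale in the floxed lines (adjusted p = 1.35e-05) and by 1.86 in WT (adjusted p = 1.5e-07), and Dusp1 by 1.05 and 1.04 (adjusted p = 3.22e-06 and 2.49e-06). WT replicate 1 after OHT had the lower Junb but the higher Fos of the WT pair, with 76.8 CPM against 24.5 CPM in replicate 2, and their part in the Junb change was not tested.

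Unlike the targets, Il6st rose at this step in both genotypes and Lifr rose in WT. Il6st had 190.3 and 207 CPM in KO mESC against 165 and 169 CPM in F/F mESC (0.25 ± 0.08; adjusted p = 0.0122), a call that was lost without F/F replicate 3 (adjusted p = 0.074) or KO replicate 4 (adjusted p = 0.136). In WT it had 178 and 176 CPM after against 123 and 146 CPM before OHT (0.39 ± 0.08; adjusted p = 0.000431). Lifr had 147 and 126 CPM after against 96.0 and 106 CPM before OHT in WT (0.44 ± 0.10; adjusted p = 0.00168), and 124 and 125 CPM in KO mESC against 115 and 121 CPM in F/F mESC (0.07 ± 0.10; adjusted p = 0.585). Gbx2 was lower in KO than in F/F mESC, with 3.51 and 3.45 CPM against 4.597 and 5.618 CPM (-0.55 ± 0.15; adjusted p = 0.00767), a call lost without F/F replicate 4 (-0.40, adjusted p = 0.0802) or KO replicate 4 (-0.54, adjusted p = 0.0542). Bcl3 was lower after than before OHT in WT at -0.29 ± 0.12 (adjusted p = 0.0453), a call lost with DESeq2 (adjusted p = 0.0679), with DESeq2 size factors in edgeR (adjusted p = 0.0513), in a fit of the groups compared alone (adjusted p = 0.0575) and without 3 of the 4 libraries (adjusted p = 0.0769 to 0.301). None of the 9 genes was called for a difference between the genotypes in this OHT step by edgeR's interaction test, where 7.86% of all genes were (4.07% higher and 3.79% lower). The count was also 0 with DESeq2, and 1 gene, Lifr (-0.36 ± 0.14), had an unadjusted p under 0.05, at 0.0187. Without WT replicate 2 after OHT, Lifr (-0.47, adjusted p = 0.0239) and Pim3 (0.31, adjusted p = 0.0415) were called, and with genes of low counts kept Lifr was (adjusted p = 0.0129).

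Markers of the cell state also moved at the OHT step, and their part in these changes was not tested. Of all genes, 43.7% were called in the floxed lines (22.1% higher and 21.5% lower) and 49.1% in WT (24.9% higher and 24.2% lower). Of the 7 genes of pluripotent cells, 4 were higher and 1 lower in both genotypes, with a sum of 3640 and 3803 CPM in KO mESC against 2991 and 3338 CPM in F/F mESC. In WT the sum was 3395 and 3508 CPM after against 2899 and 2933 CPM before OHT. The 5 genes of the formative epiblast, the state that follows naive pluripotency, summed to 156 and 151 CPM in KO mESC against 118 and 126 CPM in F/F mESC, with 2 higher. In WT they summed to 221 and 224 CPM after against 149 and 161 CPM before OHT, with 1 higher and 1 lower. Of the 7 primitive endoderm genes, 1 was higher and 2 were lower in the floxed lines and 3 were lower in WT. Their sum was 24.3 and 24.1 CPM in KO mESC against 25.4 and 22.2 CPM in F/F mESC. In WT it was 17.7 and 17.5 CPM after against 34.4 and 26.2 CPM before OHT. The counts called of the formative and primitive endoderm genes lay near the shares over all genes.

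In mESC after OHT, 2 of the 9 genes were higher and 1 was lower in KO than in WT mESC, where 38.4% of all genes were called (19.8% higher and 18.6% lower). Stat3 had 91.6 and 97.7 CPM in KO against 137 and 127 CPM in WT, without overlap (-0.48 ± 0.07; adjusted p = 5.76e-05), and was still lower without WT replicate 1 (-0.40, adjusted p = 0.00102). Bcl3 had 26.7 and 26.9 CPM in KO and 17.1 and 19.6 CPM in WT (0.54 ± 0.12; adjusted p = 0.00141; 0.47 and adjusted p = 0.0128 without WT replicate 1). Both genes differed in the same direction between the lines before OHT, and the interaction of genotype and OHT was -0.16 ± 0.10 for Stat3 and 0.22 ± 0.16 for Bcl3 (adjusted p = 0.346 and 0.43). Pim3 had 158 and 171 CPM in KO against 131 and 152 CPM in WT (0.22 ± 0.07; adjusted p = 0.0266), and was no longer called without KO replicate 4 (0.16, adjusted p = 0.225), without WT replicate 1 (0.13, adjusted p = 0.243) or in a fit of the 4 libraries alone (adjusted p = 0.074). Socs3 had 51.4 and 56.5 CPM in KO against 57.5 and 58.7 CPM in WT, groups that did not overlap but differed by -0.11 ± 0.08 (95% interval -0.27 to 0.06; adjusted p = 0.303). Junb had 7.87 and 8.44 CPM in KO against 4.08 and 8.02 CPM in WT (0.44 ± 0.21; adjusted p = 0.109). It was called without WT replicate 2 (1.00, adjusted p = 7.06e-05) and with low counts kept (adjusted p = 0.0112), and was 0.04 without WT replicate 1.

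**Figure D2:**
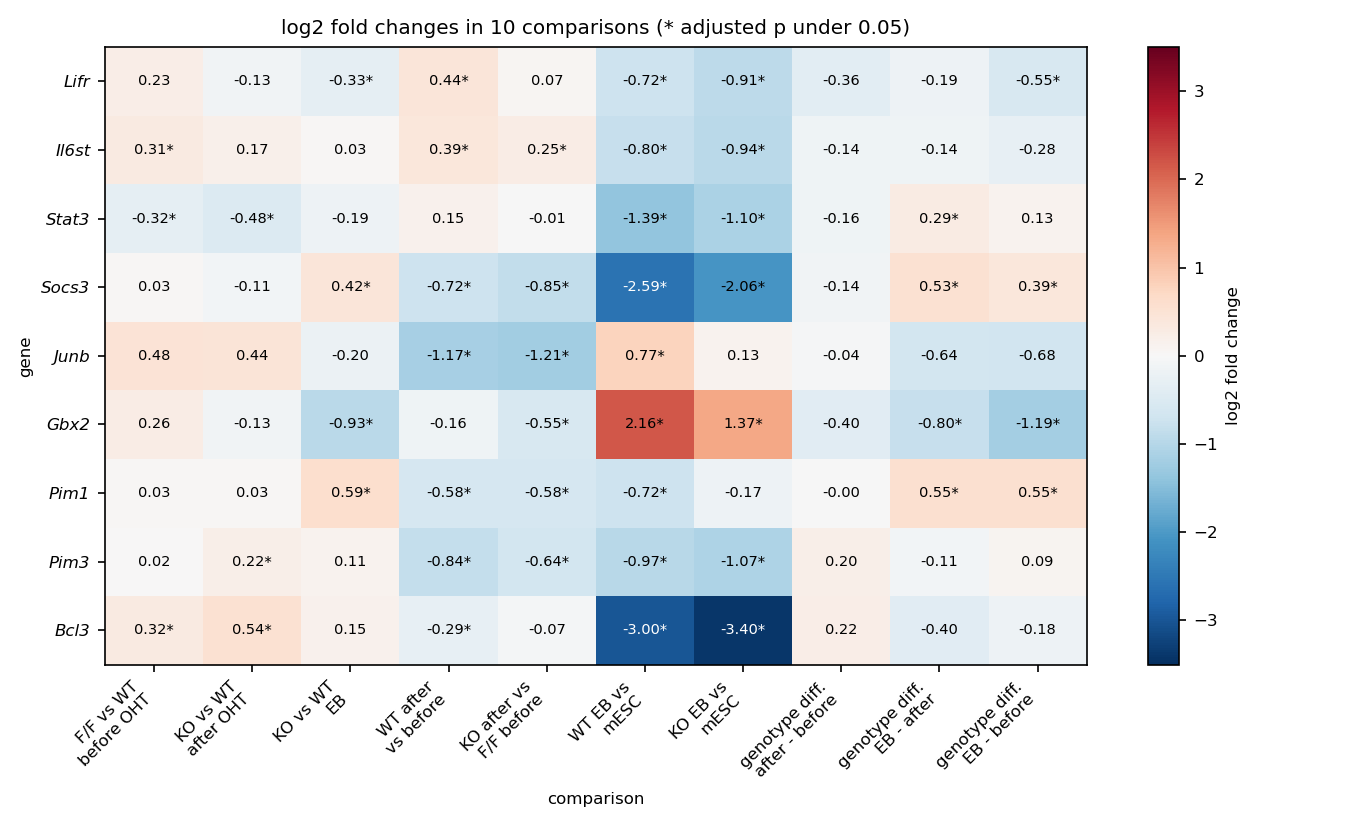
The log2 fold change of each of the 9 genes (rows) in 10 comparisons (columns), coloured from blue (lower in the group named first) to red (higher), with an asterisk where the adjusted p is under 0.05. The last 3 columns are differences between genotype effects. The strongest colours are in the 2 columns of EB against mESC, at -3.40 for Bcl3 in KO and 2.16 for Gbx2 in WT.

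Between mESC after OHT and EB, most of the 9 genes fell in both genotypes. In KO EB against KO mESC 1 gene was higher and 6 were lower, where 59% of all genes were called (31.4% higher and 27.6% lower). In WT EB against WT mESC 2 were higher and 7 lower, where 62.3% were called (32.5% higher and 29.8% lower). Of these, 6 were lower and 1 was higher in both genotypes, and the share of all genes called in the same direction in both was not computed. Bcl3 had 2.99 and 1.99 CPM in KO EB against 26.7 and 26.9 CPM in KO mESC (-3.40 ± 0.15; adjusted p = 2.37e-12). In WT it had 2.21 and 2.35 CPM in EB against 17.1 and 19.6 CPM in mESC (-3.00 ± 0.15; adjusted p = 9.98e-12). The EB values of Bcl3 rest on 58 to 112 counts a library. Socs3 had 12.7 and 13.3 CPM in KO EB against 51.4 and 56.5 CPM in KO mESC (-2.06 ± 0.09; adjusted p = 1.6e-12). In WT it had 9.70 and 9.64 CPM in EB against 57.5 and 58.7 CPM in mESC (-2.59 ± 0.09; adjusted p = 7.76e-14). No EB library overlapped an mESC library for either gene.

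Stat3 was at 45.2 and 42.8 CPM in KO EB against 91.6 and 97.7 CPM in KO mESC (-1.10 ± 0.07; adjusted p = 7.93e-10). In WT it was at 52.6 and 47.8 CPM in EB against 137 and 127 CPM in mESC (-1.39 ± 0.07; adjusted p = 2.5e-11). The receptor chains fell less: Lifr by 0.91 in KO and 0.72 in WT, and Il6st by 0.94 in KO and 0.80 in WT, on the log2 scale (adjusted p at most 6.77e-06). Pim3 fell by 1.07 in KO and 0.97 in WT (adjusted p = 1.48e-09 and 4.86e-09). Pim1 had 217 and 206 CPM in KO EB against 238 and 236 CPM in KO mESC (-0.17 ± 0.08; adjusted p = 0.0894). It was called there with low counts kept (adjusted p = 0.0408) or with the groups fitted alone (adjusted p = 0.000484). In WT, Pim1 had 133 and 148 CPM in EB against 209 and 255 CPM in mESC (-0.72 ± 0.08; adjusted p = 6.4e-07).

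Gbx2, a homeobox gene used later in the neural plate, was the exception. It had 9.18 and 8.75 CPM in KO EB against 3.51 and 3.45 CPM in KO mESC (1.37 ± 0.15; adjusted p = 4.54e-07). In WT it had 17.3 and 16.9 CPM in EB against 3.51 and 4.14 CPM in mESC (2.16 ± 0.14; adjusted p = 2.8e-10). Junb was higher in WT EB than in WT mESC, with 9.94 and 10.5 CPM against 4.08 and 8.02 CPM (0.77 ± 0.21; adjusted p = 0.00353), a call that was lost without WT mESC replicate 1 (0.31, adjusted p = 0.0798). In KO it had 9.07 and 8.75 CPM in EB and 7.87 and 8.44 CPM in mESC (0.13; adjusted p = 0.629).

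Markers of the cell state moved with these changes. Of all genes, 59% were called in KO (31.4% higher and 27.6% lower) and 62.3% in WT (32.5% higher and 29.8% lower). Of the 5 formative epiblast genes, 5 were higher in EB than in mESC in both genotypes, and of the 7 genes of pluripotent cells 6 were lower and 1 higher in KO EB, and 5 lower and 1 higher in WT EB. Their part in the changes of the 9 genes was not tested, and in bulk RNA fewer cells of a kind and less RNA per cell cannot be told apart. The pluripotent genes summed to 1717 and 1590 CPM in KO EB and 1594 and 1733 CPM in WT EB, against 2899 to 3803 CPM in mESC, and none was at 0 in any group. The 8 markers of feeder fibroblasts summed to 20.8 and 19.4 CPM in KO EB and 17.3 and 18.5 CPM in WT EB, against 7.85 to 10.8 CPM in mESC, with Postn at 0 in both WT EB libraries. Of the 5 of these that were tested, 3 were higher and 1 was lower in EB in both genotypes. Thy1 alone had a mean of 11.9 CPM in KO EB and 12.1 CPM in WT EB, against 2.06 CPM in KO mESC and 5.33 CPM in WT mESC after OHT.

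In EB the genotypes differed in 4 of the 9 genes, 2 higher and 2 lower in KO EB than in WT EB, where 40.4% of all genes were called (20.7% higher and 19.7% lower). Pim1, a serine/threonine kinase gene, had 217 and 206 CPM in KO EB against 133 and 148 CPM in WT EB. Both KO libraries lay above both WT libraries, and Pim1 was 1.503-fold higher in KO (log2 0.59 ± 0.08; adjusted p = 2.16e-05). Socs3 had 12.7 and 13.3 CPM in KO EB and 9.70 and 9.64 CPM in WT EB, which is 1.34-fold higher in KO (0.42 ± 0.09; adjusted p = 0.0017). Gbx2 had 9.18 and 8.75 CPM in KO EB and 17.3 and 16.9 CPM in WT EB, a fold of 0.52 (-0.93 ± 0.13; adjusted p = 2.27e-05). These 3 calls held under every alternative run. Lifr had 63.9 and 68.4 CPM in KO EB and 93.6 and 72.4 CPM in WT EB (-0.33 ± 0.10; adjusted p = 0.0165), and the call was lost without WT replicate 1 (-0.12, adjusted p = 0.417) or without KO replicate 3 (-0.28, adjusted p = 0.127). Stat3 had 45.2 and 42.8 CPM in KO EB and 52.6 and 47.8 CPM in WT EB (-0.19 ± 0.07; adjusted p = 0.0544). Il6st and Pim3 differed by 0.03 and 0.11, with 95% intervals of -0.13 to 0.20 and -0.05 to 0.27, whereas the interval of Bcl3, -0.25 to 0.54, was wider.

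Pim1, Socs3 and Gbx2 were not called between the genotypes in mESC, before or after OHT, and the interaction tests compared those differences with the ones in EB. Against the genotype difference in mESC after OHT, that in EB was higher by 0.55 ± 0.12 for Pim1 (adjusted p = 0.00185). It was higher by 0.53 ± 0.12 for Socs3 (adjusted p = 0.00388) and lower for Gbx2, at -0.80 ± 0.20 (adjusted p = 0.00706). Stat3 was the fourth gene called, at 0.29 ± 0.10 (adjusted p = 0.0447), but the call was lost on leaving out any 1 of 6 of the 8 libraries, both KO mESC, both KO EB, WT mESC replicate 1 and WT EB replicate 2 (adjusted p = 0.0629 to 0.218), or in a fit of the groups compared alone (adjusted p = 0.051). Of all genes, 28.6% were called in this test (14.8% higher and 13.7% lower). Junb stood at -0.64 ± 0.30 (adjusted p = 0.118), was called with the line as a replicate block (-0.67, adjusted p = 0.0417) and with low counts kept (adjusted p = 0.0109), and was -0.23 (adjusted p = 0.459) without WT mESC replicate 1. Leaving out WT mESC replicate 2 gave Junb -1.20 (adjusted p = 0.000166). Against the difference before OHT, EB differed by 0.55 ± 0.12 for Pim1 (adjusted p = 0.00142), 0.39 ± 0.12 for Socs3 (adjusted p = 0.0201), -1.19 ± 0.20 for Gbx2 (adjusted p = 0.000184) and -0.55 ± 0.14 for Lifr (adjusted p = 0.00656), where 31.2% of all genes were called (15.5% higher and 15.7% lower). The Socs3 value in this test was no longer called without F/F replicate 4, WT mESC replicate 1, KO EB replicate 4 or WT EB replicate 2 (adjusted p = 0.0592 to 0.101), nor that of Lifr without WT EB replicate 1 (-0.35, adjusted p = 0.0539). Junb was -0.68 ± 0.28 here (adjusted p = 0.0776), and was called with the replicate block (adjusted p = 0.0298), with low counts kept (adjusted p = 0.00282) and with the groups fitted alone (adjusted p = 0.00539). Il6st, at -0.28 ± 0.11 (adjusted p = 0.0584), was called with low counts kept (adjusted p = 0.0367) and without WT mESC replicate 2 before OHT (-0.40, adjusted p = 0.0106).

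Line by line, the same libraries read as follows, as a description that adds no test. In EB, Socs3 kept 24.7% and 23.5% of its mESC level in the 2 KO lines, against 16.9% and 16.4% in the 2 WT lines. Pim1 kept 90.8% and 87.3% in the KO lines against 63.5% and 58.3% in the WT lines. Gbx2 reached 262% and 254% of its mESC level in the KO lines against 494% and 408% in the WT lines. The lines of the genotypes did not overlap for these 3 genes, nor for Lifr, Il6st, Stat3, Junb and Bcl3 at this step, although the interaction of Lifr, Il6st, Junb and Bcl3 did not pass the test. Of these, Lifr was called without WT EB replicate 2 (-0.37, adjusted p = 0.0487), and Bcl3 moved to -0.75 from -0.40 and was called without KO EB replicate 3 (adjusted p = 0.0356). For Pim3 the lines overlapped, at 50.7% and 44.6% in KO against 54.2% and 48.6% in WT. The share of all genes whose lines did not overlap was not computed. At the OHT step the lines did not overlap for Lifr, Stat3, Gbx2, Pim3 and Bcl3, although none of these was called in the interaction test of that step.

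**Figure D3:**
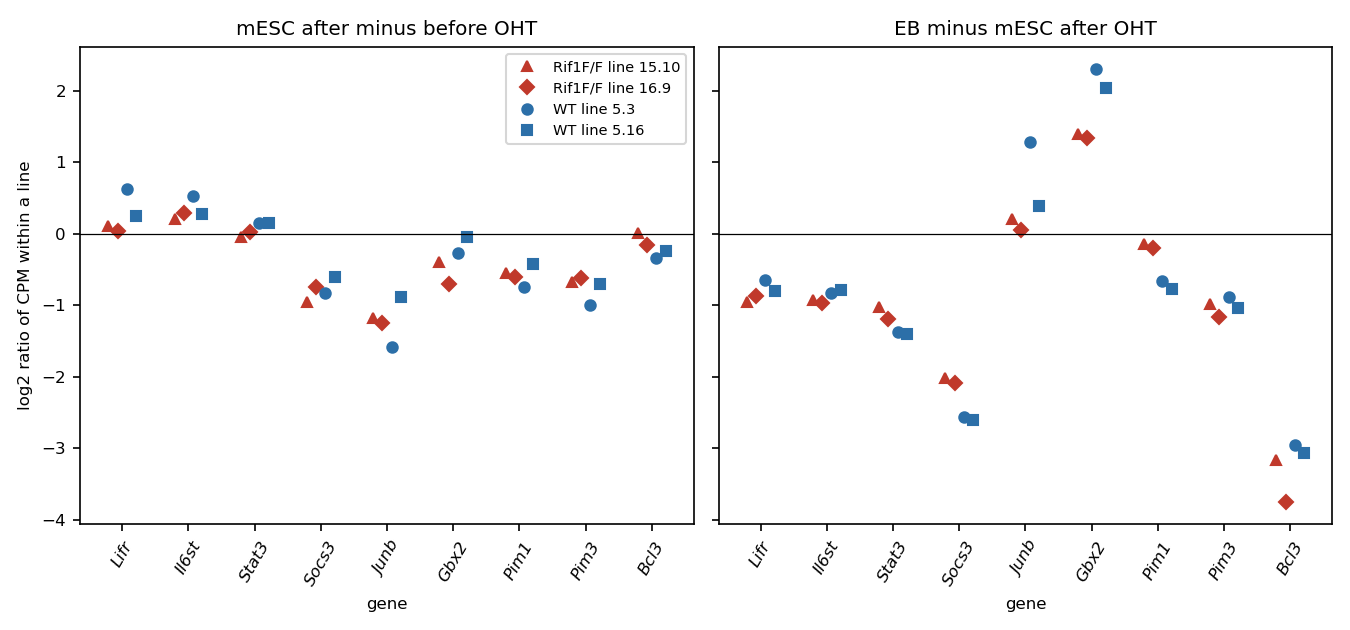
Change of each of the 9 genes within each of the 4 lines, as the log2 ratio of CPM after to before OHT (left) and of EB to mESC after OHT (right), with the floxed lines (red) left of the WT lines (blue). In the right panel the KO lines lie above the WT lines for Socs3 and Pim1 and below them for Gbx2. In the left panel the lines of both genotypes overlap for Socs3 and Pim1, and the floxed lines lie below the WT lines for Gbx2.

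The related kinases Pim1 and Pim3 can be set against each other within a library, as a description with no test. The ratio of Pim1 to Pim3 CPM was 1.39 and 1.37 in F/F mESC against 1.35 and 1.38 in WT mESC before OHT, and 1.51 and 1.38 in KO against 1.60 and 1.68 in WT mESC after it. In EB it was 2.70 and 2.71 in KO and 1.87 and 2.01 in WT. Pim2, the other kinase gene of this family, rose to 141 CPM on average in KO EB, against 11.2 CPM in KO mESC (3.65 ± 0.12; adjusted p = 6.7e-14), and to 189 CPM in WT EB, against 10.7 CPM in WT mESC (4.15 ± 0.12; adjusted p = 8.88e-15). In EB its level was lower in KO (-0.42 ± 0.10; adjusted p = 0.00256), the opposite of Pim1, although not called without WT EB replicate 2 (-0.25, adjusted p = 0.0961).

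Further markers differed between KO and WT EB beside these genes, where 40.4% of all genes were called (20.7% higher and 19.7% lower). Of the 5 formative epiblast genes, 5 had lower levels in KO EB, with a sum of 1022 and 1017 CPM in KO against 1683 and 1685 CPM in WT, and the 6 trophoblast genes, of which 2 were higher in KO, summed to 84.6 and 82.4 CPM in KO and 49.997 and 51.3 CPM in WT. The formative genes differed in mESC too, with 3 of 5 lower in KO than in WT after OHT, where 18.6% of all genes were lower. Before OHT, 2 of 5 were lower in F/F than in WT, where 17.5% of all genes were lower. Of the trophoblast sum, Tfap2c held 44.0 CPM on average in KO EB and 16.3 CPM in WT EB. Of the trophoblast genes, 3 were higher and 1 lower in F/F than in WT mESC before OHT, where 37.4% of all genes were called. After OHT, 2 were higher and 1 lower in KO, where 38.4% of all genes were called. Gata3 averaged 7.54 CPM in F/F and 0.0958 CPM in WT before OHT, and 5.13 CPM in KO EB and 0.351 CPM in WT EB. Of the 7 pluripotent genes, whose sums in EB were close, 3 were higher and 2 lower in KO EB. Chosen after their values were seen, Nanog had 162 and 159 CPM in KO EB against 79.7 and 67.7 CPM in WT EB (1.121 ± 0.09; adjusted p = 1.62e-08). Zfp42 had 127 and 122 CPM in KO EB against 53.0 and 50.2 CPM in WT EB (1.27 ± 0.09; adjusted p = 4.59e-09). Utf1 had 64.5 and 55.9 CPM in KO EB against 124 and 165 CPM in WT EB (-1.26 ± 0.16; adjusted p = 8.44e-06). In mESC before OHT, F/F and WT means were 154 and 88.8 CPM for Zfp42, 40.3 and 77.5 CPM for Utf1, and 605 and 612 CPM for Nanog. After OHT, KO and WT means were 310 and 124 CPM for Zfp42, 39.9 and 44.4 CPM for Utf1, and 845 and 927 CPM for Nanog. No gene of the formative, trophoblast or pluripotent list was at 0 in both libraries of a group. The 7 primitive endoderm genes summed to 19.8 and 21.5 CPM in KO EB and 20.2 and 18.0 CPM in WT EB. The 3 neural genes summed to 36.8 and 37.4 CPM in KO and 30.1 and 38.8 CPM in WT. The 4 blood genes summed to 2.06 and 1.48 CPM in KO and 3.43 and 2.92 CPM in WT, with Cd48 and Hbb-bh1 at 0 in both WT EB libraries. Their part in the differences of Pim1, Socs3, Gbx2 and Lifr was not tested.

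Upstream of the 9 genes stand the cytokines of the gp130 family, to which LIF belongs. Of 9 such ligands, 7 were tested, while Il6 and Il27 did not pass the filter, and in KO against WT EB 1 was higher and 3 were lower, where 40.4% of all genes were called (20.7% higher and 19.7% lower). Lif itself was lower, at 7.10 and 7.96 CPM in KO EB against 11.9 and 9.88 CPM in WT EB (-0.53 ± 0.14; adjusted p = 0.00662), though not called without KO replicate 3 or WT replicate 1 (adjusted p = 0.0779 and 0.0922). Osm, oncostatin M, had 1.44 and 1.48 CPM in KO EB against 3.82 and 3.07 CPM in WT EB (-1.23 ± 0.18; adjusted p = 3.16e-05), and Clcf1 was lower by -1.73 ± 0.40 (adjusted p = 0.00243; 0.061 without KO replicate 3). Ctf2, which encodes neuropoietin in the mouse, had 6.70 and 6.35 CPM in KO EB against 0.303 and 0.343 CPM in WT EB, on 251 and 185 counts against 10 and 14 counts (4.32 ± 0.32; adjusted p = 1.06e-08).

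Of 6 further receptor chains, 1 was higher and 2 were lower in KO EB than in WT EB, against the same 20.7% and 19.7% of all genes. Il6ra, the interleukin-6 receptor that pairs with gp130, had 8.86 and 10.6 CPM in KO EB against 1.70 and 1.99 CPM in WT EB (2.38 ± 0.17; adjusted p = 6.83e-09). It changed by -0.63 in KO EB against KO mESC and by -2.99 in WT EB against WT mESC on the log2 scale, and the interaction was 2.36 ± 0.22 (adjusted p = 6.68e-07). Il27ra, the receptor of interleukin-27, was lower (-1.13 ± 0.28; adjusted p = 0.00335; 0.0598 without WT replicate 1). In both genotypes Cntfr, the receptor of ciliary neurotrophic factor, was higher in EB than in mESC, by 3.40 in KO and 3.87 in WT (adjusted p = 8.14e-09 and 7.08e-10).

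Among 10 JAK kinases and other STATs, 4 were higher and 1 was lower in KO EB than in WT EB, a share called of 5 in 10 that lies near the 40.4% of all genes. Jak1, the main kinase bound to gp130, had 133 and 137 CPM in KO EB against 98.5 and 106 CPM in WT EB (0.40 ± 0.06; adjusted p = 8.08e-05), and Jak2 had 22.8 and 24.9 CPM in KO EB against 17.2 and 15.99 CPM in WT EB (0.52 ± 0.09; adjusted p = 0.000127). Stat6 was lower in KO EB (-0.41 ± 0.08; adjusted p = 0.000411). From mESC to EB, 7 of 10 fell in KO with 1 higher, where 27.6% of all genes fell. In WT, 8 of 10 fell with 0 higher, where 29.8% did. Jak3 changed most of the 10, by -2.42 ± 0.15 in KO and -2.81 ± 0.15 in WT (adjusted p = 2.4e-10 and 2.53e-11).

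Of 16 inhibitors and phosphatases of JAK-STAT signalling, 1 was higher and 2 were lower in KO EB than in WT EB, where 40.4% of all genes were called. These were Socs7 (0.22 ± 0.07; adjusted p = 0.0168), Pias4, which encodes a SUMO ligase (-0.57 ± 0.10; adjusted p = 0.000303), and Cish, a relative of Socs3 (-1.03 ± 0.34; adjusted p = 0.0226). Socs7 and Cish lost the call without 1 library, for Socs7 any of 3 (adjusted p = 0.0699 to 0.103) and for Cish either of 2 (adjusted p = 0.107 and 0.213). In mESC after OHT, 1 of the 16 was higher and 5 were lower in KO mESC than in WT mESC, a share near the 38.4% called over all genes, with Socs2 at -0.56 ± 0.09 (adjusted p = 9.96e-05) and Pias3 at 0.52 ± 0.08 (adjusted p = 7.64e-05). Without WT replicate 1 the counts were 1 higher and 2 lower.

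Of 12 further genes known as STAT3 targets in mESC, 3 were higher and 3 lower in KO EB than in WT EB, where 40.4% of all genes were called. Pramel7, a factor of naive mESC, had 6.89 and 6.11 CPM in KO EB against 1.64 and 0.760 CPM in WT EB (2.49 ± 0.23; adjusted p = 1.91e-07), and Tfcp2l1, a core factor of the self-renewal programme, had 134 and 135 CPM in KO EB against 111 and 101 CPM in WT EB (0.35 ± 0.08; adjusted p = 0.00164). Myc, a growth regulator, had 13.9 and 15.8 CPM in KO EB and 37.1 and 34.1 CPM in WT EB (-1.26 ± 0.18; adjusted p = 2.87e-05). In mESC before OHT, F/F and WT means were 25.5 and 11.8 CPM for Pramel7 and 1.64 and 1.18 CPM for Myc. After OHT, KO and WT means were 29.3 and 26.2 CPM for Pramel7 and 3.40 and 6.92 CPM for Myc. From mESC to EB, 4 of the 12 were higher and 7 lower in KO and 3 higher and 8 lower in WT, where 59% and 62.3% of all genes were called. Among those that fell in both, Tfcp2l1 changed by -3.97 in KO and -4.30 in WT, Klf4 by -4.36 and -3.97, and Klf5 by -2.53 and -2.01 on the log2 scale. Before OHT, 6 of the 12 were higher and 3 lower in F/F than in WT mESC, where 37.4% of all genes were called, with Ccnd1 at -1.87 ± 0.08 (adjusted p = 6.87e-12) and Tfcp2l1 at 0.58 ± 0.07 (adjusted p = 1.12e-05). In mESC after OHT, 2 were higher and 5 lower in KO than in WT, where 38.4% of all genes were called, with Klf4 at 0.66 ± 0.10 (adjusted p = 6.67e-05) and Sgk1 at -1.18 ± 0.09 (adjusted p = 1.46e-08). Klf4 and Sgk1 lay in the same direction before OHT, with F/F and WT means of 481 and 331 CPM for Klf4 and 141 and 292 CPM for Sgk1.

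Of 9 paralogs and partners of the STAT3 targets, 4 were higher and 1, Pim2, was lower in KO EB than in WT EB, where 20.7% of all genes were higher and 19.7% lower. Those named by the rule were genes of the NF-κB pathway in which BCL3 acts: Nfkbia (0.86 ± 0.08; adjusted p = 3.76e-07), Nfkb2 (0.55 ± 0.10; adjusted p = 0.000321) and Relb (0.60 ± 0.14; adjusted p = 0.00187). Of 11 immediate early genes, 1 was higher and 3 were lower in KO EB, a share near the 40.4% called over all genes. Btg2 was higher (0.47 ± 0.09; adjusted p = 0.000468), whereas Dusp1, Nr4a1 and Ier2 were lower by 0.42, 0.36 and 0.32 on the log2 scale (adjusted p = 0.00763, 0.0158 and 0.0469) and each lost the call without at least 1 library, Ier2 also with DESeq2 (adjusted p = 0.0552).

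The median log2 fold change in KO EB over WT EB was 0.03 for the 9 genes, -0.02 over all genes tested, -0.40 for the ligands, -0.16 for the receptor chains, 0.24 for the JAKs and STATs, -0.05 for the inhibitors, 0.10 for the further STAT3 targets, 0.36 for the paralogs and partners and 0.02 for the immediate early genes. The last 3 lists overlap, since Fos and Jun each stand in more than 1.

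**Figure D4:**
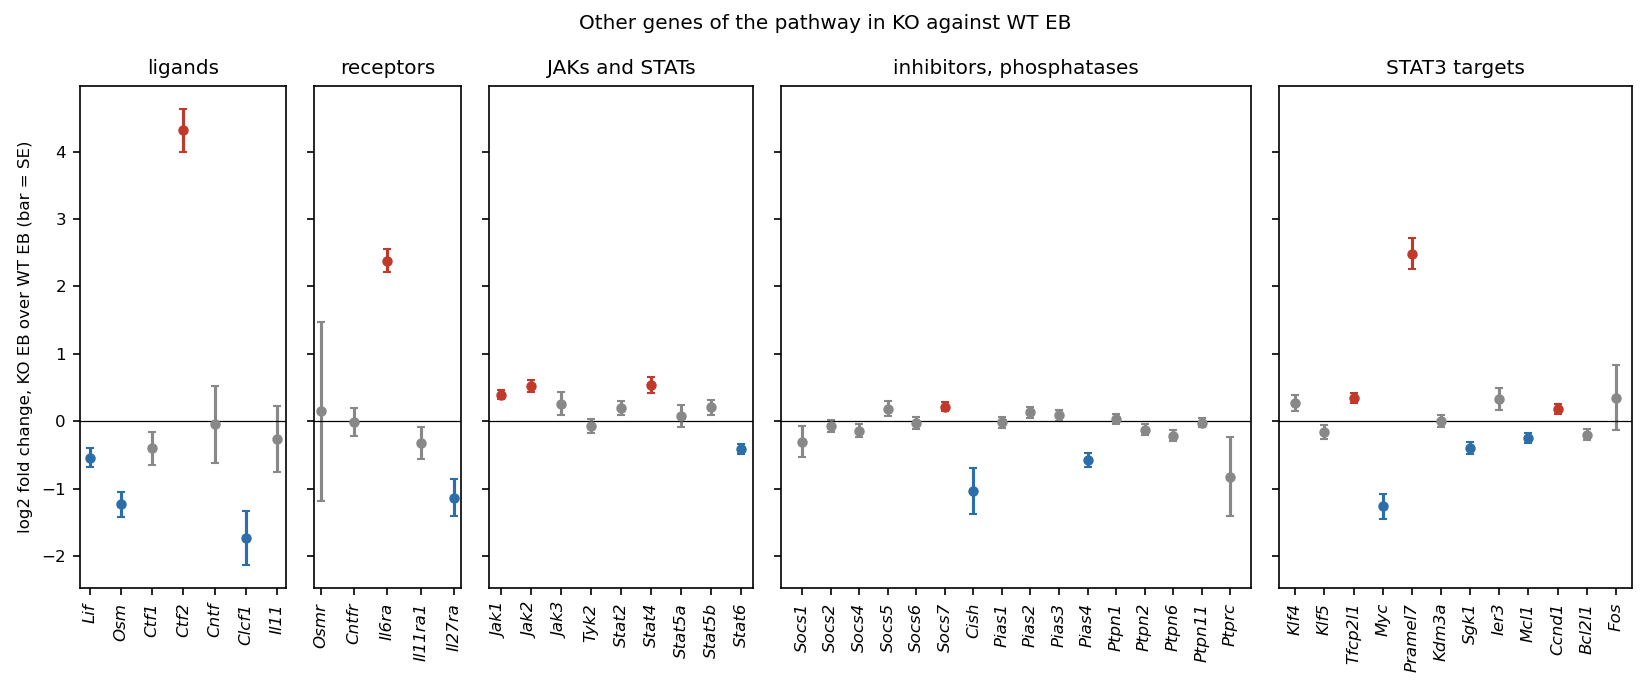
The log2 fold change in KO EB over WT EB (vertical axis) of genes tested in 5 pathway lists, with bars of 1 SE. Red points were higher and blue points lower at adjusted p under 0.05, and grey points were not called. Ctf2, Il6ra and Pramel7 lie above 2, and Osm, Clcf1, Il27ra, Cish and Myc below -1.

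Across the 12 libraries, the levels of Socs3 followed those of Pim3 (Pearson r = 0.973 of log2 CPM) and Bcl3 (r = 0.964) most closely among the 9 genes, and ran against those of Gbx2 (r = -0.872). Junb had r = 0.293 with Socs3. Among 11077 genes with a mean log2 CPM of at least 2, those most like Socs3 were Rell1 (r = 0.998), Yipf1 (0.995), Pvr (0.993), S100a1 (0.992) and Sccpdh (0.992). Those most like Bcl3 were Klf4 (0.997) and Kcnj12 (0.995), and those most like Pim3 were Acyp1 (0.997) and Bmp7 (0.995). For the remaining genes the 2 most alike were Fbxo30 and Zfp568 for Lifr, Cdh4 and Ticrr for Il6st, Sfrp1 and Efcab14 for Stat3, Rab10os and Apoe for Junb, D630045J12Rik and Fzd7 for Gbx2, and Stx7 and Tcf24 for Pim1, at r = 0.962 to 0.993. The 12 libraries share 4 lines and fall into 3 conditions, so these values describe a common rise and fall over the conditions.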

How the data were processed

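The authors deposited raw counts of reads per gene symbol for the 12 libraries in 1 table, with no normalization. The submitters' processing notes name BWA, HTSeq, DESeq2 and the mm9 build but give neither version nor role, and no source used here states a strand setting, so overlapping, antisense or near-identical genes may share reads.

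Counts were tested with edgeR 4.0.16 (R 4.3.3): TMM scaling, filterByExpr, 1 model of the 6 groups, quasi-likelihood F test, Benjamini-Hochberg adjustment over 17115 genes, threshold 0.05. The common coefficient of variation was 0.0717, with 11.0 prior degrees of freedom. SE are the log2 fold change divided by the root of F. With 2 lines per genotype, p-values measure the spread between these libraries, and nothing says that cultures were repeated. The script was tested on simulated data.

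The members and gene lists were chosen with earlier results of these data known. The 9 genes and Rif1 were always named, and from each list up to 4 genes with the smallest adjusted p per comparison could be named. The lists were gp130 ligands, receptor chains, JAKs and STATs, inhibitors, further STAT3 targets, paralogs and immediate early genes, beside cell type markers; values of some list genes are not reported here. Alternatives were DESeq2 size factors, the DESeq2 1.42.0 Wald test, no filter, only the groups compared, a replicate block and leaving out each library. Replicate numbers pair the conditions because same-numbered libraries come from the same line; deviations from group means correlated at -0.066 to 0.091 over genes. Exon lengths came from GENCODE on GRCm38 and promoters from RefSeq on GRCm38.p6, matched by symbol for 9 of 9 genes.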

Additional observations from a re-analysis of the deposited data

Results flagged for a closer look

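Genotype effects of 5 of the 9 genes differed between conditions in at least 1 of the interaction tests of edgeR. The share of all genes called in at least 1 of these tests was not computed. Between EB and mESC after OHT the KO against WT effect differed by 0.29 for Stat3, 0.53 for Socs3, -0.80 for Gbx2 and 0.55 for Pim1, on the log2 scale. Between EB and mESC before OHT it differed by -0.55 for Lifr, 0.39 for Socs3, -1.19 for Gbx2 and 0.55 for Pim1. Both tests use the same EB libraries. In each test 4 of the 9 genes were called, where 28.6% of all genes were called in the first and 31.2% in the second. The call of Stat3 in the first test, and those of Socs3 and Lifr in the second, were each lost on leaving out at least 1 library. The KO lines and WT lines did not overlap in the change of Stat3, Socs3, Gbx2 and Pim1 from mESC after OHT to EB. Nor did they overlap for Lifr, Il6st, Junb and Bcl3, which were not called in the first test. This describes the same libraries, and the share of all genes without overlap was not computed.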

How the results depend on the processing

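Of 891 values of the 9 genes under the alternatives, 814 kept direction and side of the threshold, 32 lost a call, 22 gained one and 23 changed sign, each from a value that was not called. The count of called genes was 5 in place of 3 for F/F against WT mESC before OHT, with low counts kept and in a fit of the groups compared alone. For the genotype difference after minus before OHT it was 1 in place of 0 with low counts kept. Leaving out each library gave 1 to 3 called genes for F/F against WT before OHT (1 without WT replicate 1), 2 to 4 for KO against WT after OHT, 3 to 4 for KO against WT EB, 4 to 6 for KO against F/F mESC, 6 to 8 for WT after against before OHT, 7 for KO EB, 8 to 9 for WT EB, and, for the genotype differences, 0 to 2 for after minus before OHT (2 without WT mESC after OHT replicate 2), 3 to 5 for EB minus after and 3 to 5 for EB minus before.

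The replicate block changed the call of Junb in 2 genotype differences, EB minus mESC after OHT (-0.67) and EB minus before OHT (-0.68), and no other call. The value of Pim1 in the after minus before OHT difference, which was -6.1e-05, was 0.0041 with DESeq2 size factors, 0.0022 with DESeq2, 0.030 with the groups compared alone and 0.0073 with the replicate block. Without 1 library, signs changed in these ranges: F/F against WT before OHT, Socs3 -0.055 to 0.13 and Pim3 -0.014 to 0.061; KO against F/F mESC, Stat3 -0.056 to 0.036 and Bcl3 -0.16 to 0.020; KO against WT after OHT, Pim1 -0.087 to 0.18; KO against WT EB, Bcl3 -0.20 to 0.39 and Il6st -0.0047 to 0.072; WT after against before OHT, Rif1 -0.19 to 0.0076; after minus before OHT, Junb -0.45 to 0.51 and Pim1 -0.13 to 0.15; EB minus before OHT, Bcl3 -0.53 to 0.062. The causes were not tested. Of 77 called values of list genes checked in the same way, 66 kept their call under all alternatives. The EB values of Bcl3 rest on 58 to 112 counts a library.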
